A study of Mus musculus with 24 samples.

Results

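The genes described here are 8 transcripts of the medial prefrontal cortex (mPFC), Ccng2, Coq10b, Rhobtb2, Fam207a, Cmah, Gpatch8, Atp11b and 5930430L01Rik, out of 15456 genes in the table. They were chosen by the difference between mice given *R. flavefaciens* together with duloxetine and mice given *R. flavefaciens* alone, so that values of this difference describe the choice and test nothing about them. Gene expression was measured by RNA-seq in 24 male BALB/C mice (BALB/c OlaHsd in the methods) at postnatal week 11, with 1 library per mouse and 6 mice in each of 4 groups. The control group carried the label of no treatment and, according to the methods, received PBS. The duloxetine group received this reuptake inhibitor of serotonin and norepinephrine by daily intraperitoneal injection at 10 mg per kg. The *R. flavefaciens* group received this live anaerobic gut bacterium by gavage, and the combined group received both. Treatment lasted 21 days before behavioral testing, no group was exposed to a stress protocol, and all tissue was a needle punch that holds every cell type of the region. In such bulk tissue, fewer cells of a type and less RNA per cell cannot be told apart. Between 12811413 and 15607343 reads per mouse were recovered from the normalized counts, and all 8 genes passed the filter on low values.

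The 8 genes do not belong to a single pathway. Cyclin G2, the product of Ccng2, is an unconventional cyclin that slows the cell cycle and whose gene is a known target of FoxO transcription factors, which insulin and growth factor signaling switch off. In neurons, which no longer divide, several of the other products serve housekeeping roles, in mitochondrial electron transport, protein turnover, ribosome assembly and the asymmetry of membrane lipids. Mouse Cmah makes a sialic acid variant that is known to be scarce in brain compared with other organs.

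On GRCm38, Ccng2 lies on chromosome 5 from 93267257 to 93276231 on the plus strand, and Coq10b on chromosome 1 from 55052770 to 55072702 on the plus strand. Rhobtb2 lies on chromosome 14 from 69784990 to 69805636 on the minus strand, and Fam207a on chromosome 10 from 77486661 to 77515785 on the minus strand. Cmah lies on chromosome 13 from 24327404 to 24477377 on the plus strand, and Gpatch8 on chromosome 11 from 102475915 to 102556392 on the minus strand. Atp11b lies on chromosome 3 from 35754106 to 35856276 on the plus strand. The lincRNA 5930430L01Rik lies on chromosome 5 from 148990056 to 148995223 on the minus strand. Exons of 3 of these genes overlap exons of other annotated genes that have no row in the table, and their counts are uncertain for that reason. These are Fam207a with the lincRNA 2810425M01Rik and Coq10b with E330011M16Rik, both on the opposite strand, and 5930430L01Rik with the protein-coding Gm42791 on the same strand.

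Promoters were read from a set of RefSeq promoters (GRCm38.p6). The set used here held 8 promoters of 7 of the genes, with a pair of starts for Cmah and none for Rhobtb2. The window ran from 250 bases before the start to 50 after it, both strands were searched, and shares refer to 14618 promoters of genes in the table. The FoxO motif GTAAACA was in 0 of the 8 member promoters and in 2.50% of all promoters. The E-box CACGTG was in 2 of the 8, those of Coq10b and 5930430L01Rik, and in 9.52% of all. The motif TGACG, the core of the cAMP response element, was in 1 of the 8, that of Coq10b, and in 29.3% of all, whereas the full element TGACGTCA, which contains it, was in 0 and 2.95%. AGAACA, part of the glucocorticoid response element, was in 1 of the 8 and 12.6% of all, and the GC box GGGCGG in 3 of the 8 and 60.1% of all, with 10 matches in the promoter of Atp11b. The promoters of Coq10b and 5930430L01Rik, genes of opposite direction, are shown as the 2 with an E-box. Coq10b also holds 4 TGACG matches, and 5930430L01Rik holds 2 E-boxes. Both were picked out of 8 promoters and 6 motifs after the matches were seen, so these numbers only describe them. Both are given as the 250 bases before the start, on the strand of the gene, with E-box and TGACG matches in capitals; CGTCA is the reverse strand of TGACG. The first is chr1:55052520-55052769, plus strand, and the second chr5:148995215-148995464, minus strand. A match describes letters in the window and not a bound site.
Coq10b: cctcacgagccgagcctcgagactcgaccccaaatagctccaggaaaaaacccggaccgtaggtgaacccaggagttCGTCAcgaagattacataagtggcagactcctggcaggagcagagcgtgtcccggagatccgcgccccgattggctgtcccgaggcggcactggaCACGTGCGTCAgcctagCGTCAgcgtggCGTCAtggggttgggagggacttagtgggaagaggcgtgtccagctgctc
5930430L01Rik: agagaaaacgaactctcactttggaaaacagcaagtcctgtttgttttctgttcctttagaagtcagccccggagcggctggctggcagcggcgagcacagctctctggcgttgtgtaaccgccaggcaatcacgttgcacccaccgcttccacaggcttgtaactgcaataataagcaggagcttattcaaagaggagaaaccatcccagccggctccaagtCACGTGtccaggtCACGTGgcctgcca

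Ccng2, Coq10b, Rhobtb2 and Fam207a had their highest mean in the *R. flavefaciens* group and their lowest in the combined group. Cmah, Gpatch8, Atp11b and 5930430L01Rik had the reverse. The control and duloxetine groups lay between. The order, a description of genes chosen for their difference between the outer groups, was combined, duloxetine, control, *R. flavefaciens* from low to high for the first 4 genes, and exactly turned for the other 4. In this order neighboring groups overlapped in every case but 1, 5930430L01Rik between *R. flavefaciens* and control. The place of duloxetine on the combined side of control is not fixed by the difference between the outer groups. The duloxetine difference had the same sign with and without the bacterium in all 8 genes and in 55.6% of all genes. The 8 genes varied together over the mice, and this count was not tested.

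**Figure D1:**
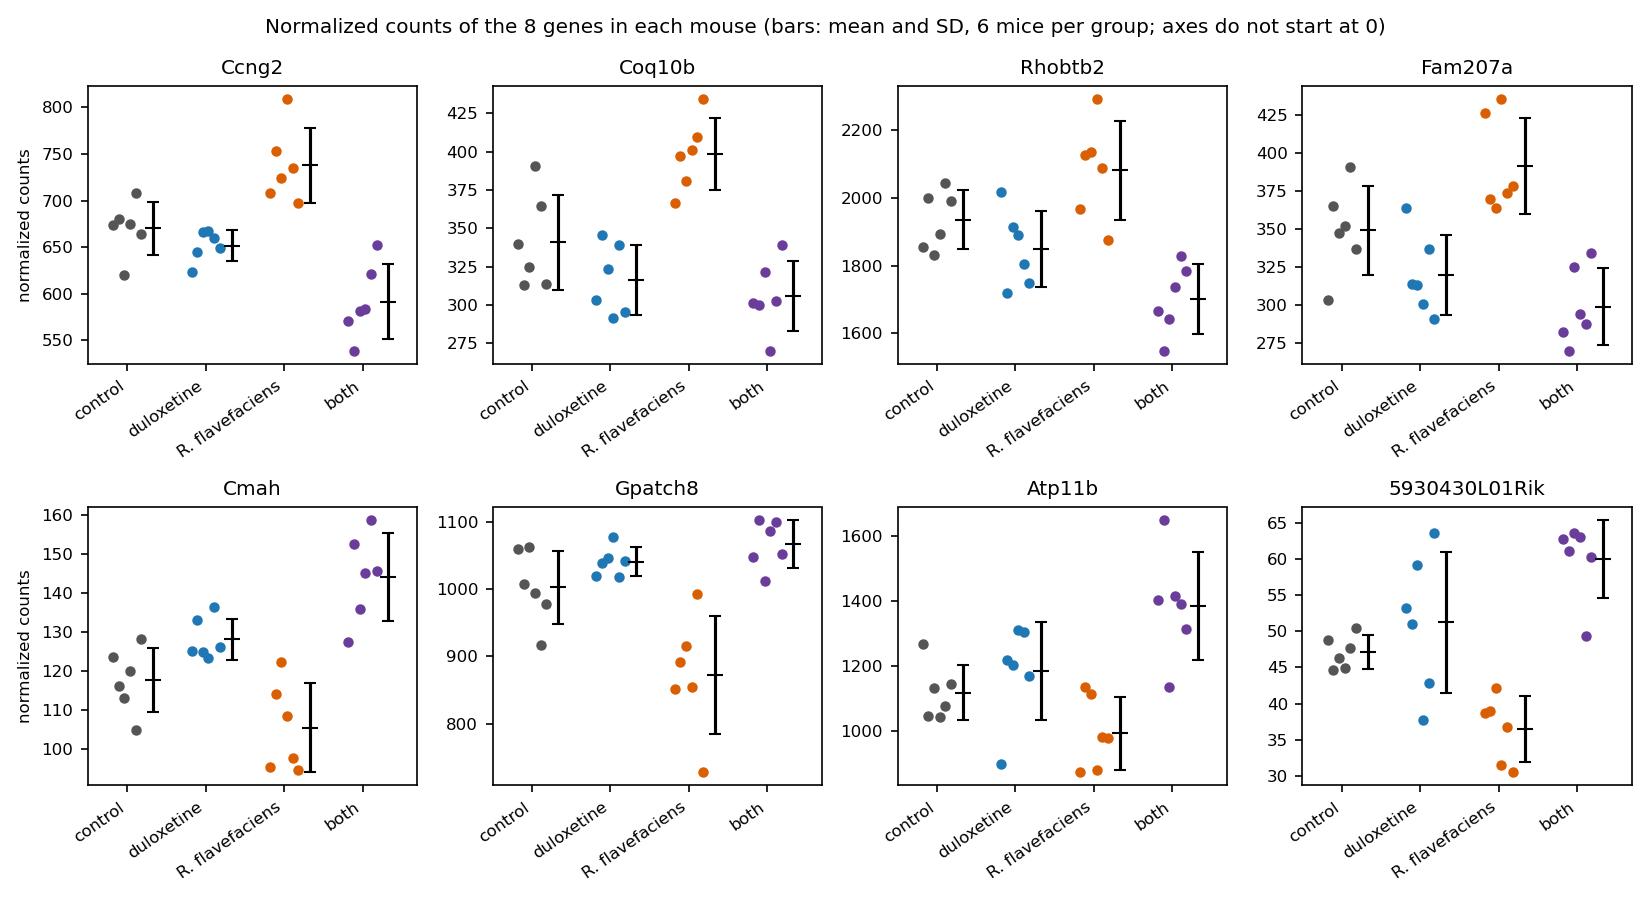
Normalized counts (y axis, not starting at 0) of each gene in each of 24 mice (points), by group (x axis, "both" for duloxetine with R. flavefaciens), with the mean and SD of 6 mice beside them. In all 8 panels the R. flavefaciens and combined groups hold the extreme means, on opposite sides for the upper and lower row.

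Ccng2 ranged over its lowest, median and highest mouse from 697 through 729.6 to 809.5 normalized counts in the *R. flavefaciens* group and from 538 through 582 to 652 in the combined group. The same values were 620.04, 674 and 708 in control and 623, 654 and 667 in duloxetine. The 6 combined mice lay below all 6 *R. flavefaciens* mice, and the duloxetine mice lay within the control range. The means were 738 ± 40.3 and 591 ± 40.1 (SD, n = 6) in the *R. flavefaciens* and combined groups, a log2 fold change of -0.32 (SE 0.0475), or 19.9% lower with duloxetine added.

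Coq10b encodes a mitochondrial protein that binds coenzyme Q and is needed for its work in respiration. It ranged from 367 through 399 to 434 normalized counts in the *R. flavefaciens* group and from 270.1 through 302 to 339 in the combined group. The range in control was 313 through 332 to 390.4, and in duloxetine 291 through 313.5 to 346. The *R. flavefaciens* and combined groups did not overlap, while the combined and duloxetine groups overlapped widely, with 1 of 6 combined mice below all duloxetine mice. The log2 fold change of the combined against the *R. flavefaciens* group was -0.38 (SE 0.0652), or 23.2% lower.

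Rhobtb2 encodes a protein that acts with the ubiquitin ligase scaffold cullin 3. Its values ran from 1875 through 2106 to 2291 normalized counts in the *R. flavefaciens* group and from 1549 through 1702 to 1827 in the combined group. Control mice ranged from 1832 through 1941 to 2043, and duloxetine mice from 1718 through 1847 to 2017. The combined mice lay below all control mice as well as all *R. flavefaciens* mice, and Rhobtb2 was the only 1 of the 8 genes for which the combined and control groups did not overlap. The log2 fold change of the combined against the *R. flavefaciens* group was -0.29 (SE 0.0508).

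Fam207a, whose yeast relative takes part in assembly of the small ribosomal subunit, ranged from 364 through 376 to 436 normalized counts in the *R. flavefaciens* group and from 269.7 through 291 to 334 in the combined group. In control the values were 303, 349.7 and 391, and in duloxetine 291, 313 and 364. Again the *R. flavefaciens* and combined groups did not overlap, but 4 of 6 *R. flavefaciens* mice lay within the control range. Fam207a was 23.6% lower in the combined group, a log2 fold change of -0.39 (SE 0.0696).

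Cmah, which encodes the hydroxylase that turns N-acetylneuraminic acid into N-glycolylneuraminic acid, ranged from 94.6 through 103 to 122 normalized counts in the *R. flavefaciens* group and from 127 through 145 to 159 in the combined group. Among control mice Cmah ranged from 105 through 118 to 128, and duloxetine mice from 123 through 126 to 136. All 6 combined mice lay above all *R. flavefaciens* mice and 5 of 6 above all control mice. Cmah was 36.8% higher in the combined group, a log2 fold change of 0.45 (SE 0.0768).

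Gpatch8, which encodes a protein with a G-patch, a motif of RNA-binding proteins, ranged from 728 through 873.5 to 993 normalized counts in the *R. flavefaciens* group and from 1013 through 1070 to 1103 in the combined group. Control mice ranged from 916 through 1001 to 1062, and duloxetine mice from 1019 through 1041 to 1078. The *R. flavefaciens* group stood apart on the low side, with 5 of 6 mice below all control mice, and the other 3 groups overlapped. The log2 fold change was -0.21 for *R. flavefaciens* and 0.09 for the combined group against control (SE 0.0531 for both).

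Atp11b, which encodes a P4-ATPase that flips phospholipids to the inner leaflet of membranes, ranged from 871 through 978 to 1134.22 normalized counts in the *R. flavefaciens* group and from 1133.74 through 1396 to 1648 in the combined group. Control mice ranged from 1041 through 1103 to 1265, and duloxetine mice from 898 through 1210 to 1309. It was the only 1 of the 8 genes whose *R. flavefaciens* and combined groups overlapped, by a single combined mouse, and the other 5 lay above every *R. flavefaciens* mouse. The log2 fold change of the combined against the *R. flavefaciens* group was 0.48 (SE 0.0869), or 39.3% higher.

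The lincRNA 5930430L01Rik, of which no function is stated here, ranged from 30.5 through 37.8 to 42.2 normalized counts in the *R. flavefaciens* group and from 49.4 through 61.9 to 63.6 in the combined group. Control mice ranged from 44.7 through 47.0 to 50.5, and duloxetine mice from 37.7 through 52.1 to 63.6. Its *R. flavefaciens* mice lay below all control and all combined mice. Its duloxetine mice spread from within the *R. flavefaciens* range to the top of the combined range. The log2 fold change of the combined against the *R. flavefaciens* group was 0.71 (SE 0.119), the largest of the 8 genes. It rested on the fewest reads, 30 to 72 per mouse, at which counting alone gives an SD of 14.7% at the median, against 2.32% for Rhobtb2.

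Per kb of exon, the mean level over 24 mice was highest for Rhobtb2, at 187 normalized counts per kb. Atp11b (127), Fam207a (127), Gpatch8 (122) and Ccng2 (121) were close to each other, and Coq10b followed at 70.8. Cmah (11.6) and 5930430L01Rik (12.2) were lowest on this scale. Among 29 genes of the sialic acid list, Cmah held rank 26 by level per kb.

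Of all 14974 genes tested with limma, 334 passed an adjusted p-value of 0.05 between the combined and *R. flavefaciens* groups (2.23%), 160 higher (1.07%) and 174 lower (1.16%). In a limma fit of only these groups 0 passed, and without combined mouse 11_3 the count was 47. The main fit takes the spread of each gene from all 4 groups, so control and duloxetine mice also enter the p-values behind the 334. The part of this in the drop to 0 was not tested. Under upper quartile scaling 186 were higher and 106 lower. The 8 genes, of which 4 were higher and 4 lower, hold ranks between 1 and 13 by p-value in the main fit. Since they were chosen on this comparison, the ranks and p-values describe them only. The exact limit used for the choice is not given in the sources used here. Ccng2 held the first rank. The last of them, Atp11b, had an adjusted p-value of 0.00927 in limma, and the first gene after it, Tm2d2, had 0.00943. The other 5 genes among the first 13 were Mthfd1l, Dbp, Adrb1, AC165273.1 and Col15a1, with log2 fold changes of -0.40, -0.61, -0.46, 0.72 and 0.99. Otud1 (-0.40) and Akap13 (0.42) came after Tm2d2 (-0.24). The genes nearest to the threshold of 0.05 on its far side were Tmem38a, Asna1 and Id3, with log2 fold changes of -0.18, -0.17 and -0.39. Without overlap between these groups were 7 of the 8 genes, and 1.44% of all genes.

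Each treatment alone was set beside the combination for the same genes. The 3 differences from control share the control mice and are given side by side only. For *R. flavefaciens* alone, the log2 fold changes from control were 0.14 for Ccng2, 0.23 for Coq10b, 0.10 for Rhobtb2 and 0.16 for Fam207a. They were -0.16 for Cmah, -0.21 for Gpatch8, -0.17 for Atp11b and -0.37 for 5930430L01Rik. For the combined group they were, in the same order, -0.18, -0.15, -0.19, -0.22, 0.29, 0.09, 0.30 and 0.34. All 8 genes stood on opposite sides of control in these groups, which are the groups that chose them, so that this is a description of the choice and not a result. The distance from control was larger in the *R. flavefaciens* group for 3 of the 8, Coq10b, Gpatch8 and 5930430L01Rik, and larger in the combined group for the other 5. Only 1 of 8 did not overlap with control in the *R. flavefaciens* group, 5930430L01Rik, against 1.62% of all genes, and only 1 in the combined group, Rhobtb2, against 2.04%. Between the combined and duloxetine groups 0 of 8 were without overlap, against 0.254% of all genes.

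**Figure D2:**
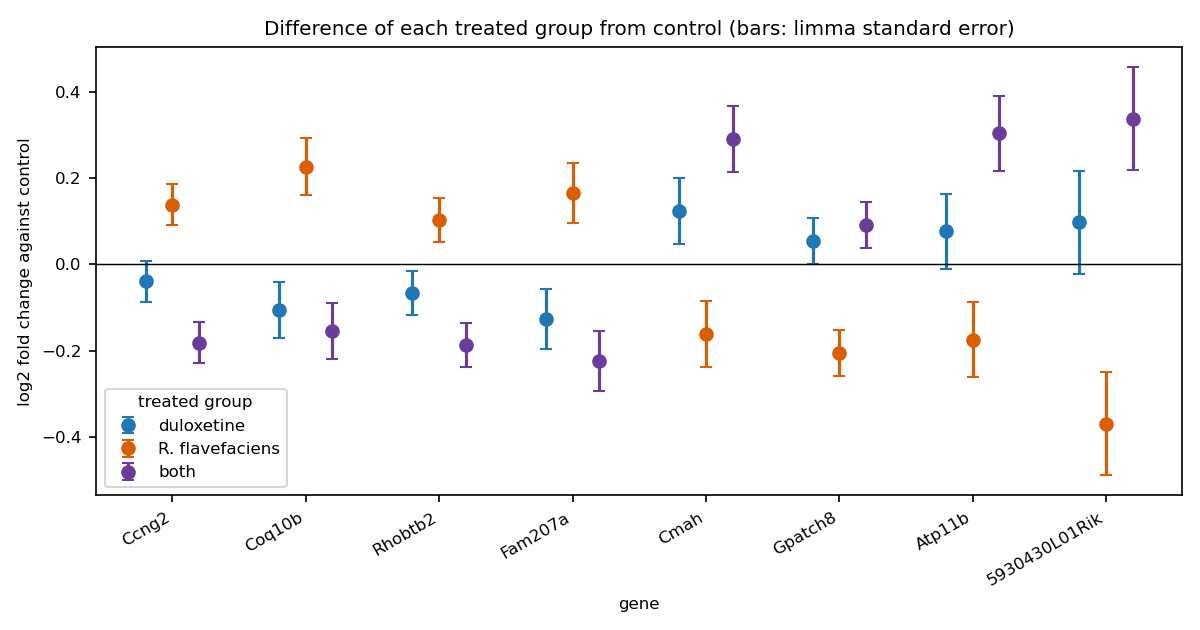
Log2 fold change of each treated group against control (y axis) for the 8 genes (x axis), with limma standard errors as bars and 6 mice per group ("both" for duloxetine with R. flavefaciens). R. flavefaciens alone ranges from 0.23 for Coq10b to -0.37 for 5930430L01Rik and lies opposite to the combined group, which follows in part from how the genes were chosen.

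The fold changes and exact tests of duloxetine against control use none of the mice whose difference names the 8 genes, whereas the standard errors of the limma fit, and with them its p-values and intervals, also rest on the spread among those mice. Whether its values also entered the choice is not given in the sources used here. Some of the first 13 genes of the comparison above were not chosen. Of these, Adrb1 (-0.39), Dbp (-0.21) and Mthfd1l (-0.20) had larger duloxetine differences than any of the 8. AC165273.1 (0.07) and Col15a1 (0.10) lay within the range of the 8. Small values here may be part of the choice, which these genes do not settle. The median size of the duloxetine difference on the log2 scale was 0.087 for the 8, beside 0.056 for all genes. None of the 8 genes passed, with an adjusted p-value of 0.9996 in limma for each, and across all genes 0% passed. At an unadjusted p-value under 0.05 limma held 0 of the 8, against 3.83% of all genes (573). In a fit of only the control and duloxetine mice, which leaves out the mice that chose the genes, it again held 0 of the 8 but 1052 of all genes, with 0.0502 as the lowest adjusted p-value, and edgeR on all mice held 588. The differences lay between 0.04 and 0.13 in size on the log2 scale, and for 5 genes a single mouse moved them by over 1.5 times. The value was -0.06 without control mouse 2_2 and -0.02 without 3_1 for Ccng2, -0.07 without 2_3 for Coq10b and 0.03 without 3_1 for Gpatch8. It was 0.15 without duloxetine mouse 5_1, 0.04 without 6_1 and 0.05 without 6_2 for Atp11b. For 5930430L01Rik it was 0.18 without 6_1, 0.05 without 5_4 and 0.03 without 6_3. No sign changed and no gene passed in these fits. With all mice, the 95% intervals ran from -0.14 to 0.06 for Ccng2, from -0.24 to 0.03 for Coq10b, from -0.17 to 0.04 for Rhobtb2 and from -0.27 to 0.02 for Fam207a. For the other genes they ran from -0.03 to 0.28 for Cmah, from -0.05 to 0.16 for Gpatch8, from -0.10 to 0.25 for Atp11b and from -0.15 to 0.34 for 5930430L01Rik. Every interval includes 0, and differences up to its limits cannot be set aside.

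In two-sided exact permutation tests over all groupings of these 12 mice, whose smallest possible p-value is 0.00216, Cmah had p = 0.0281, with 128 ± 5.29 normalized counts under duloxetine and 118 ± 8.26 in control (SD, n = 6). All 6 duloxetine mice lay above the control mean of Cmah. The same held for Gpatch8, and for Ccng2 all 6 lay below the control mean. The p-value of Cmah is unadjusted and 1 of 8. Fam207a had p = 0.0974, Gpatch8 0.141, Coq10b 0.149, Rhobtb2 0.158, Ccng2 0.221, 5930430L01Rik 0.422 and Atp11b 0.446 in the same exact test. No gene of the 8 was without overlap between these groups, against 0.334% of all genes.

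**Figure D3:**
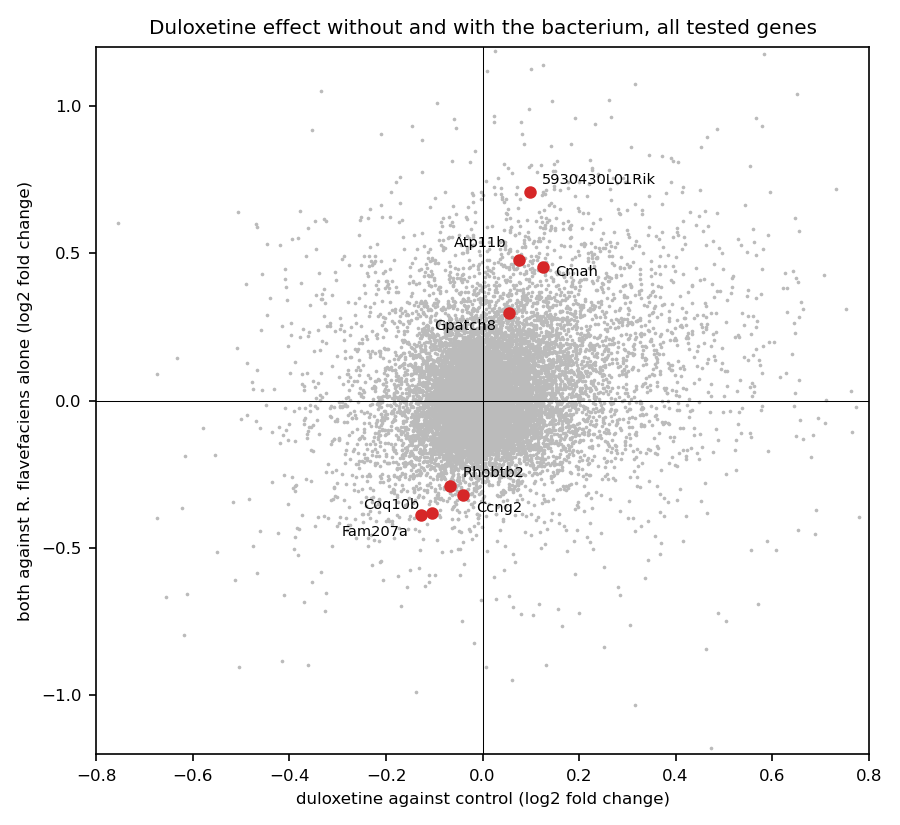
Log2 fold change of duloxetine against control (x axis) and of duloxetine with R. flavefaciens against R. flavefaciens alone (y axis) for all 14974 tested genes (gray) and the 8 genes (red), with 18 genes outside the axes. The 8 genes lie within 0.13 of 0 on the x axis, while their distance from 0 on the y axis was fixed by the choice of genes.

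How the 8 genes varied together was described over the mice. Over 24 mice, Pearson's r between genes of the same direction was positive for 12 of 12 pairs, with a median of 0.74, and between genes of opposite direction it was negative for 16 of 16 pairs, with a median of -0.70. These values include the group differences that chose the genes. After the group means were taken off, the median fell to 0.31 for the same direction, with 10 of 12 pairs positive, and stood at -0.12 for opposite directions, with 3 of 16 positive. Ccng2 and Rhobtb2 had an r of 0.68 and Fam207a and Atp11b an r of -0.77. The other pairs were weaker, and Coq10b and Rhobtb2, of the same direction, had -0.15. The genes share libraries, depth and tissue punches. Within groups, 9 of the 12 and 14 of the 16 pairs lay inside the range that the middle 90% of all genes showed with both genes of the pair, for example -0.46 to 0.52 for Ccng2. The pairs outside it were Ccng2 with Rhobtb2, Rhobtb2 with Fam207a, Cmah with Atp11b, Coq10b with Gpatch8 and Fam207a with Atp11b.

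**Figure D4:**
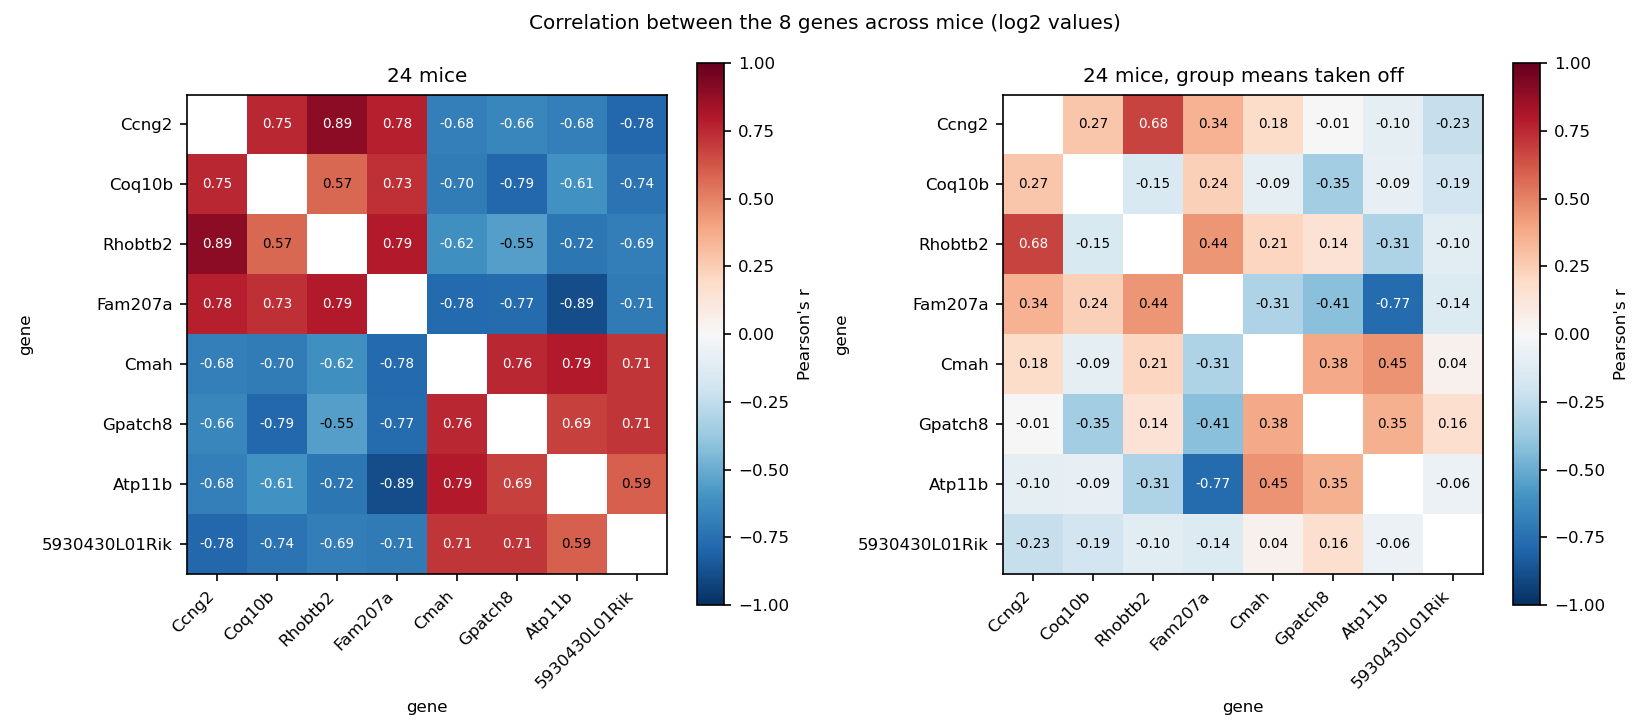
Pearson's r between the 8 genes (both axes) on log2 values of 24 mice, as measured (left) and after the mean of each group was taken off (right). The block pattern on the left, with a median of 0.74 within a direction, is weaker on the right, where Ccng2 with Rhobtb2 (0.68) and Fam207a with Atp11b (-0.77) stand out.

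The genes most like Ccng2 over 24 mice were Rhobtb2 (r = 0.89), Kcnj9 (0.84), which encodes a potassium channel subunit, and Dnajb4 (0.84), which encodes a heat shock cochaperone. The plain mean of the 8 standardized genes, in which opposite directions cancel, was most like Zfp398, Golgb1, Mlxip, Nin and Spen, with r from 0.79 to 0.82. It was least like Mdfic (-0.83), Dph7 (-0.74) and Cyp2j6 (-0.72). With the sign of the first 4 genes turned, the score was most like Cers4 (0.86), which encodes a ceramide synthase, AC165080.4, Fam214a, Kctd18 and Lrrcc1. It was most opposite to Tm2d2 (-0.89), Rcc2 (-0.87) and Pcbp1 (-0.86). This signed score was added after the data were seen, and it holds the group differences.

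Other genes of the same pathways did not move with them past the threshold. In 7 lists built around Ccng2, Coq10b, Rhobtb2, Fam207a, Cmah, Gpatch8 and Atp11b, 0 of 133 other genes passed between the combined and *R. flavefaciens* groups in limma, beside 2.23% of all genes, and 15 had an unadjusted p-value under 0.05 (11.3%, beside 19.7% of all genes). In duloxetine against control 0 passed and 5 had an unadjusted p-value under 0.05 (3.76%, beside 3.83% of all genes). The median log2 fold change between the combined and *R. flavefaciens* groups lay between -0.07, for the assembly of the small ribosomal subunit, and 0.09, for P4-ATPase lipid flippases, beside 0.00188 for all genes tested.

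Among the relatives with the smallest p-value of their list, Ccng1, the other G-type cyclin, had a log2 fold change of -0.16 (SE 0.0649), against -0.32 for Ccng2. Its limma adjusted p-value was 0.165. Utp3, a factor of small subunit assembly, had -0.17 (SE 0.0488) and an adjusted p-value of 0.0538 in limma. Cmas, which activates sialic acids, had -0.18 (SE 0.0537) and 0.0644, and was thus lower where Cmah was higher. Rbm6 had 0.15, Klhl20 0.17 and Coq4 -0.14, and none of them passed.

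**Figure D5:**
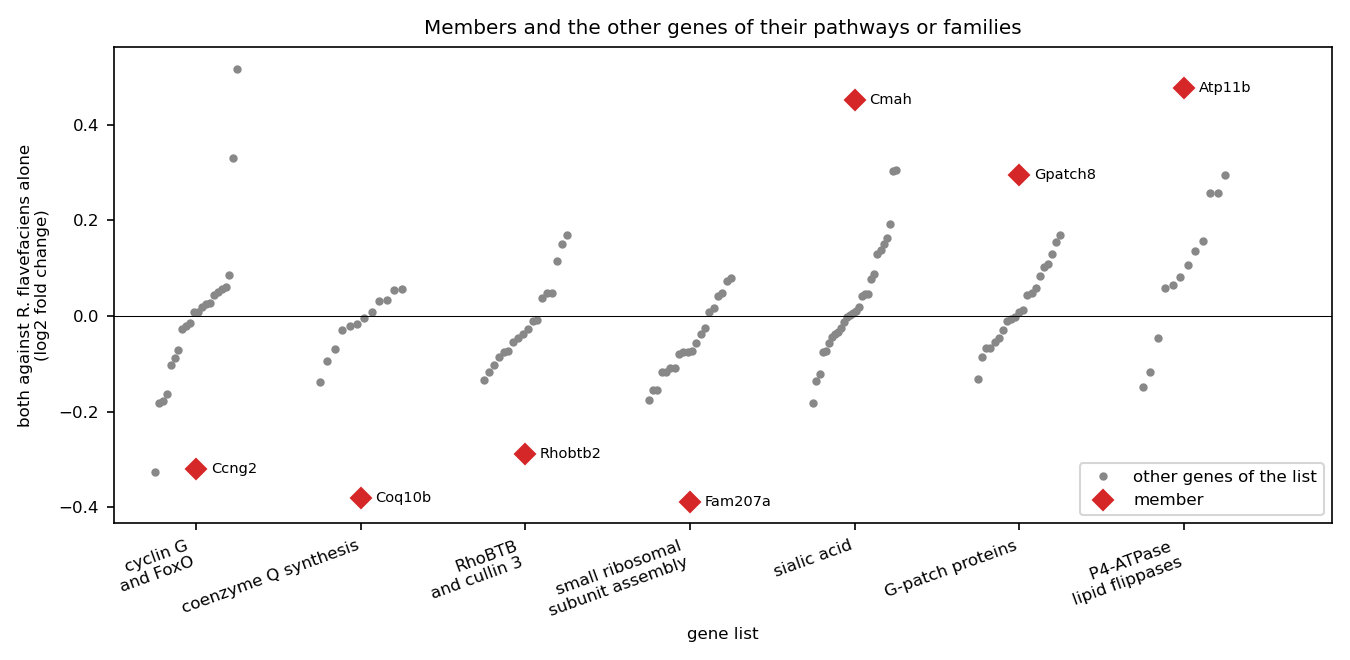
Log2 fold change of the combined against the R. flavefaciens group (y axis) for 7 member genes (diamonds) and the other genes of the list built around each (gray points, sorted), by list (x axis). In each list except cyclin G and FoxO the member lies farther from 0 than every other gene, which follows in part from how the members were chosen. In the cyclin G and FoxO list Txnip (0.52), Fbxo32 (0.33) and Irs2 (-0.33) lie farther from 0 than Ccng2 (-0.32), without passing the threshold.

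Immediate early genes, which neuronal activity induces within minutes, are not members and were listed beside them. The list was chosen with earlier results of these data known, so its shares are a description. In the combined against the *R. flavefaciens* group 4 of 15 passed, all lower, which is 26.7% of the list against 1.16% of all genes. They were Npas4 (-1.22), Egr4 (-0.66), Nr4a1 (-0.66) and Junb (-0.59), with a list median of -0.61. In a limma fit of only these groups 0 of all genes passed, these 4 included, with 0.0615 as the lowest adjusted p-value. In duloxetine against control the list had a median of -0.41, all 15 were lower, 8 had an unadjusted p-value under 0.05, beside 3.83% of all genes, and 0 passed. Whether the list differed from the 8 genes was not tested. Of 14 glucocorticoid targets 0 passed in either comparison, and Ddit4 came nearest with 0.43 and an adjusted p-value of 0.102 in limma for the combined against the *R. flavefaciens* group.

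The tissue held the markers of cortex. All 6 markers of cortical excitatory neurons were in the table, led by Camk2a with a mean of 52790 normalized counts, and all 6 of inhibitory neurons, led by Gad1. Between the combined and *R. flavefaciens* groups, none of 9 marker lists passed in two-sided exact permutation tests of the summed level, with p from 0.143 for inhibitory neurons to 0.911 for oligodendrocytes. For duloxetine against control, a comparison added after the data were seen, the lowest exact permutation p was 0.0498, for microglia, led by Csf1r, and 0.896 after adjustment over 18 tests. The microglia sum was 3649 ± 327 normalized counts under duloxetine and 3300.0 ± 166 in control (SD, n = 6), and 5 of its 6 genes were higher, 4 of them at an unadjusted limma p-value under 0.05. All 6 oligodendrocyte, all 6 astrocyte and all 5 blood markers were higher and all 6 striatum markers lower there, and 0 passed in limma. The part of these markers in the 8 genes was not tested. Sums of oligodendrocyte markers, led by Mbp, nonetheless spread from 11510 to 51300 normalized counts over the 24 mice. Of 6 choroid plexus markers 3 were in the table, Folr1, Kcne2 and Otx2 had no row, and the sum of the 3 present reached 791 in *R. flavefaciens* mouse 8_4, against 25.5 to 152 in the other mice. The same mouse had the highest sum of striatum markers, 4720 against 1113 to 2748 in the others. Without it, the log2 fold changes of the combined against the *R. flavefaciens* group were -0.33 for Ccng2, -0.39 for Coq10b, -0.28 for Rhobtb2 and -0.41 for Fam207a. They were 0.50 for Cmah, 0.31 for Gpatch8, 0.51 for Atp11b and 0.75 for 5930430L01Rik. These values belong to the comparison that chose the genes and describe them only.

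Libraries differed in spread, by group as well as by mouse. The spread of a mouse's genes around their medians over all mice, as the interquartile range of log2 values, was 0.417 in *R. flavefaciens* mouse 9_3, against 0.163 to 0.181 in control. Combined mouse 12_2 followed with 0.315 and mouse 8_4 with 0.297. By group this range averaged 0.173 in control, 0.1765 under duloxetine, 0.2595 under *R. flavefaciens* and 0.2304 in the combined group. Mouse 9_3 had the lowest value of its group for Ccng2, Rhobtb2, Cmah, Gpatch8 and 5930430L01Rik, and the highest for Coq10b. Without 9_3, the combined group differed from the *R. flavefaciens* group by -0.34 for Ccng2, -0.36 for Coq10b, -0.32 for Rhobtb2 and -0.40 for Fam207a (log2). The differences were 0.42 for Cmah, 0.24 for Gpatch8, 0.48 for Atp11b and 0.66 for 5930430L01Rik, again in the comparison that chose the genes. The mitochondrial share of reads was 4.29% in control, 5.04% under duloxetine, 4.88% under *R. flavefaciens* and 5.52% in the combined group, with an exact permutation p = 0.00866 for duloxetine against control and 0.167 for the combined against the *R. flavefaciens* group. Recovered reads also differed between duloxetine and control (exact permutation p = 0.00433), and both p-values were 0.0346 after adjustment over 8 tests. The share of reads on non-coding genes was 1.415% in control and 1.527% under duloxetine (exact permutation p = 0.0433, adjusted 0.115), and its r within groups over the 8 genes ran from -0.52 for Rhobtb2 to 0.44 for Atp11b, with -0.17 for Gpatch8 and -0.01 for 5930430L01Rik. For the mitochondrial share r ran from -0.54 for Rhobtb2, with -0.46 for Ccng2, to 0.31 for Atp11b. The part of these measures in the 8 genes was not tested, and within groups the strongest r with any of them was -0.58, between Gpatch8 and the interquartile range. Over 24 fits that each lacked 1 mouse, the combined group differed from the *R. flavefaciens* group on the log2 scale by values from -0.35 to -0.29 for Ccng2 and from 0.66 to 0.76 for 5930430L01Rik. In a limma fit of only the 12 mice of both groups, 0 of all genes passed, the 8 included. Their log2 fold changes were those of the main fit, and their limma adjusted p-values lay between 0.0615 and 0.0967.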

How the data were processed

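Poly(A) RNA of the mPFC of 24 mice was sequenced. The authors mapped the reads with TopHat2, to GRCm38.p5 by the methods, whereas the submitters' processing notes name mm9, TopHat2 2.1.0, Bowtie2 2.2.6 and DESeq2 1.18.1. The positions of all 8 genes equal those of GENCODE vM21 on GRCm38. Whether counting used strand is not given in the sources used here. The deposited signal values are counts that the authors normalized by 1 size factor per mouse, and whole reads were recovered for at least 99.97% of the values of each mouse within a tolerance of 0.0051.

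Values plus a pseudocount of 1 were log2 transformed, and limma 3.58.1 (R 4.3.3, trended prior) was fitted to all 4 groups together where the mean reached 10, with Benjamini-Hochberg adjustment and a threshold of 0.05. Fold changes on this scale understate changes of low genes. Single values were compared by exact permutation (scipy 1.17.1). The alternatives changed the pseudocount (0.1), the filter (none, or a mean of 50), the mice fitted (only the groups compared, or 1 mouse left out), the scaling (quantile, upper quartile), the tool (DESeq2 1.42.0 and edgeR 4.0.16 on recovered reads), the threshold (0.1) and the block (first label number, random). Scripts were tested on simulated data.

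The members and lists were chosen with earlier results of these data known. Named were the 8 genes, up to 8 other genes past the threshold with the smallest p-values and the 3 next to it, genes of the lists that passed or else the first of each, and the genes most and least like the members. A gene that this rule takes is not reported here. Irs2, Txnip and Fbxo32 were named after their values were seen. Separate mice were the replicates, and the numbers in the labels are not explained. By the methods mice were group housed, and which mice shared a cage is not given. No first label number occurs in different groups. An effect of shared housing cannot be told apart from treatment here.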

Additional observations from a re-analysis of the deposited data

Results flagged for a closer look

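Of 32 combinations of gene and group checked for a mouse far from the other 5, 2 stood out, where chance flags about 1 in 20. In the duloxetine group, mouse 5_1 had 897.88 normalized counts of Atp11b, with a gap to the nearest mouse of 0.659 of the range of the group (above Dixon's critical value). Without it the log2 fold change of Atp11b for duloxetine against control was 0.15. In the combined group, mouse 12_3 had 49.36 normalized counts of 5930430L01Rik, with a gap of 0.762 of the range. Without it the log2 fold change against the *R. flavefaciens* group was 0.76.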

How the results depend on the processing

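In duloxetine against control, the direction of the 8 genes was the same under each alternative that tested them and 0 passed, but the size moved by over 1.5 times for 5930430L01Rik under quantile normalization (0.04, against 0.10) and for Ccng2 under upper quartile scaling (-0.02, against -0.04). A minimum mean of 50 leaves 5930430L01Rik untested. For the combined against the *R. flavefaciens* group, which chose the 8 genes, whether they pass says nothing on stability. In a fit of only these groups 0 genes passed, 0 of the 8 among them, and 1998 had an unadjusted limma p-value under 0.05, all 8 among them. The log2 fold changes of the 8 were those of the main fit, with limma adjusted p-values from 0.0615 to 0.0967. The count of differentially expressed genes in this comparison, 334, became 533 with a random block (correlation -0.0451), 624 with DESeq2 and 842 at a threshold of 0.1. It ranged from 47 to 577 when 1 mouse was left out, with 577 without 8_4, 155 without 9_1, 178 without 9_3, 47 without 11_3, 158 without 12_2 and 190 without 12_3. Of 292 genes under upper quartile scaling 186 were higher and 106 lower, against 160 and 174. Duloxetine against control had 0 genes under every alternative except DESeq2, with 1, Adrb1 (log2 fold change -0.39), named after its value was seen. No paired analysis was possible because the groups share no replicate numbers. Depth limited 5930430L01Rik most, at 30 to 72 reads per mouse.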
